A study of Mus musculus with 6 samples.

Results

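Of 855 miRNA precursors listed in small RNA libraries of mouse retina, 7 were followed here because they mark the cells of blood vessels and connective tissue. They are mmu-mir-126 of endothelium, mmu-mir-143 and mmu-mir-145a of mural cells, and mmu-mir-199a-1, mmu-mir-199a-2, mmu-mir-199b and mmu-mir-214 of mesenchymal cells, chosen by their names in the deposited table and written below without the species prefix. The cKO retinas came from Dicerfl/fl, iCre75+ mice, in which a Cre recombinase driven by a rod opsin promoter deletes Dicer1, the enzyme that trims hairpin precursors into mature miRNAs, in rod photoreceptors. The control retinas came from Dicerfl/fl, iCre75- littermates. All mice were 4 weeks old and of a mixed C57BL/6J - SJL background, so the floxed alleles are shared by both genotypes, and a group with iCre75 and unfloxed Dicer1 was not analysed here. Each of the 3 cKO and 3 control libraries was made from a pool of 6 retinas. The design sets cKO against control retina. The Cre is not directed at vascular or mesenchymal cells, and Dicer1 mRNA was not analysed here.

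Retinal capillaries are tubes of endothelial cells wrapped by mural cells, which are pericytes and, on larger vessels, smooth muscle. Endothelium makes miR-126 from an intron of Egfl7, and in mouse and zebrafish it sustains vessel integrity by repressing inhibitors of VEGF signalling. Mural cells make miR-143 and miR-145 from a shared primary transcript, and both are known for keeping smooth muscle contractile. The miR-199 and miR-214 genes lie on the strand opposite to the dynamin genes. In the annotation mir-199a-2 and mir-214 lay within Dnm3os, a non-coding transcript of embryonic mesenchyme that is antisense to Dnm3. The gene of mir-199a-1 lay opposite Dnm2 and that of mir-199b opposite Dnm1. These genes are on mouse chromosome 2 (mir-126, mir-199b), 1 (mir-199a-2, mir-214), 9 (mir-199a-1) and 18 (mir-143, mir-145a).

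The mature sequences below, from RefSeq (GRCm38.p6), are shown 5′ to 3′ with the seed, bases 2 to 8, in capitals, because the seed sets which mRNAs a miRNA can bind.
miR-126a-3p: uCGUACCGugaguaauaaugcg
miR-199a-5p: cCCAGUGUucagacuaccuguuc
miR-199a-3p and miR-199b-3p: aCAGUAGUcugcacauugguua
miR-214-5p: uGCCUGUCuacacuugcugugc
miR-214-3p: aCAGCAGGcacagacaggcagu
No seed was shared between the endothelial and the mesenchymal miRNAs printed here. The seed of miR-199a-3p occurred in mature miRNAs of the 3 miR-199 genes alone among those in the RefSeq table. The seed of miR-214-3p was also found in miR-761, whose precursor was listed at 0 in every library.

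The hairpins of the 3 miR-199 genes are shown because they decide how many measurements there are, with the mature arms that RefSeq annotates in capitals.
mir-199a-1: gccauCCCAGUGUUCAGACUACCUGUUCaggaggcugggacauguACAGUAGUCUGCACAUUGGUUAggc
mir-199a-2: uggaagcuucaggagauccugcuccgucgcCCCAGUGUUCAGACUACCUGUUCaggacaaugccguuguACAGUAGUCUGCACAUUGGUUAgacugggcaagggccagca
mir-199b: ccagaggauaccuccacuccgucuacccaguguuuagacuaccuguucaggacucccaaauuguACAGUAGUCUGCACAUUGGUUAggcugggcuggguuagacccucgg
Any pair of these hairpins shared an unbroken run of 27 or 28 bases. The reads at mir-199a-1 and mir-199a-2 were equal in 3 of 6 libraries and never differed by more than 1 read. The reads at mir-199a-1 and mir-199b never differed by more than 2. RPKM, in which reads are divided by the length of the precursor and by the library's reads, was still 1.57 times higher for mir-199a-1, in proportion to its length of 70 bases against 110 bases. The 3 precursors are therefore given as a single measurement, with mir-199a-1 standing for them, and the 7 members amount to 5 separate sets of reads.

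Library totals worked out from the values ran from 5480940 to 6925715 reads in cKO and from 6894116 to 7478237 reads in control retina. The photoreceptor miRNA mir-182 took 30.2% ± 3.22 of library reads in cKO and 54.7% ± 2.34 in control retina (SD, n = 3 each). RPKM is relative to that total, and the median of the 461 precursors tested, those averaging 10 RPKM or more, was 1.67-fold higher in cKO retina (log2 fold change 0.74). Changes of single precursors are read against this shift below. In whole-retina RNA fewer cells of a type and less RNA per cell cannot be told apart, and a higher share does not show more molecules per retina.

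The vascular and mesenchymal precursors together, with the miR-199 copies counted once, held 0.281%, 0.366% and 0.327% of library reads in cKO 1 to 3, and 0.126%, 0.175% and 0.233% in control 1 to 3. Every cKO library lay above every control library, as in 71.6% of all tested precursors as deposited. This does not set the members apart, and their summed share was not worked out under another scaling. Reads of mir-126 and mir-143 made up 97.2% to 97.4% of the members' reads in cKO and 96.2% to 97.0% in control retina. On the RPKM scale, which is per length, mir-143 was the highest member in every library, and mir-126 came next without overlap within either genotype. Far below them, mir-145a and mir-199a-1 were separate in cKO retina and overlapped in control retina. The lowest was mir-214, with 4 to 12 reads in a library.

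**Figure D1:**
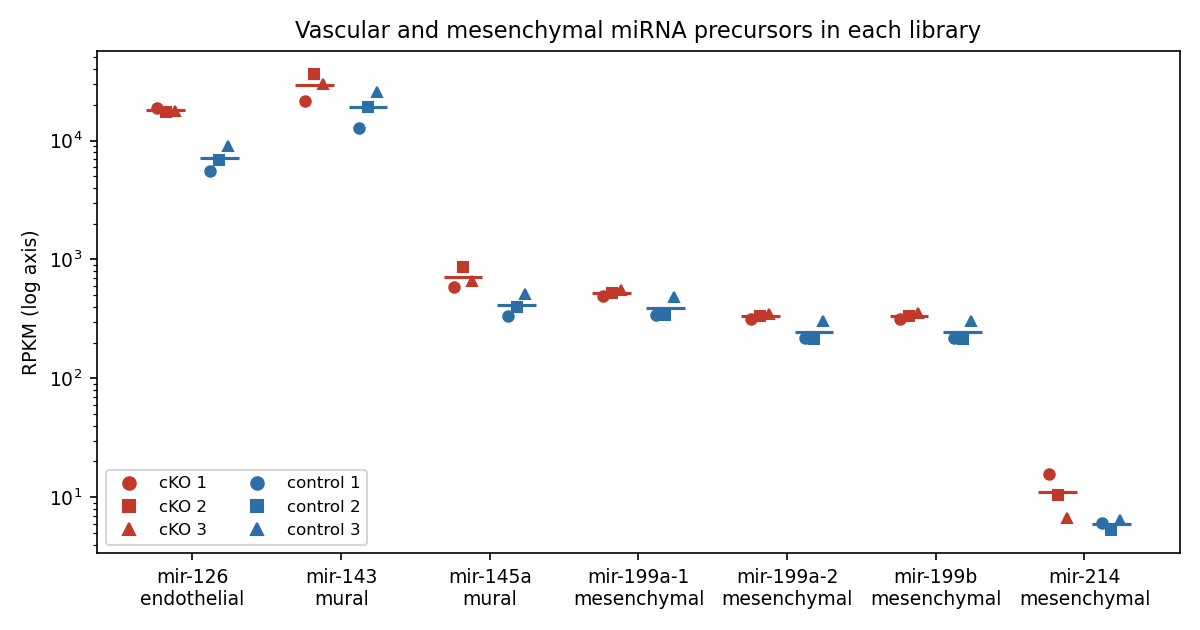
RPKM (log axis) of each of the 7 precursors, 1 point per library with cKO in red left of control in blue, and a bar at the mean of each group. The cKO points of mir-126 lie between 17256 and 18854 RPKM, all above the control points, while those of mir-143 overlap control.

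The endothelial mir-126 rose most of the members. Its locus also carries mir-126b on the opposite strand in the annotation, which was not analysed here. The labels do not say whether counting used strand, so reads of the pair cannot be told apart. It stood at 18854, 17256 and 17863 RPKM in cKO 1 to 3, and at 5495, 6877 and 8953 RPKM in control 1 to 3. The groups did not overlap, and the cKO libraries were much closer to each other (coefficient of variation 4.48%) than the control libraries (24.5%). The means were 17991 ± 806 RPKM in cKO and 7108 ± 1740 RPKM in control retina (SD, n = 3 each). In the limma fit mir-126 rose 2.58-fold (1.37 on the log2 scale with an SE of 0.17, adjusted p = 3.1e-04). Only 16 of the 461 tested precursors had a higher log2 fold change. Counting error was small beside the spread among controls: mir-126 took 0.0401% of library reads in control 1 (Wilson 95% interval 0.0387% to 0.0416%) and 0.0654% in control 3 (0.0635% to 0.0673%). Amplified reads are not independent molecules, so such intervals reflect counting error alone.

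Of the mural pair, mir-143 had 21594, 36549 and 29913 RPKM in cKO 1 to 3, and 12839, 18988 and 25534 RPKM in control 1 to 3. The lowest cKO library, cKO 1, lay below control 3, so the groups overlapped. The means were 29352 ± 7493 RPKM in cKO and 19120 ± 6348 RPKM in control retina (SD, n = 3 each). In the limma fit mir-143 rose by 0.64 on the log2 scale, with an SE of 0.25 and an adjusted p = 0.043. This was below the median shift of all tested precursors, and the within-group spread of mir-143 on the log2 scale (pooled SD 0.44) was larger than that of 84.8% of them. The call ended without cKO 2 (0.47, adjusted p = 0.12), cKO 3 (0.61, adjusted p = 0.095), control 1 (0.38, adjusted p = 0.15) or control 2 (0.66, adjusted p = 0.084).

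The less abundant mir-145a had 588, 870 and 662 RPKM in cKO 1 to 3, and 332, 400 and 510 RPKM in control 1 to 3. All cKO libraries lay above all control libraries. Its means of 707 ± 146 RPKM in cKO and 414 ± 89.6 RPKM in control retina (SD, n = 3 each) differed by 0.77 on the log2 scale in the limma fit (SE 0.20, adjusted p = 0.0072), close to the median of 0.74. It rested on 254 to 421 reads in a cKO library and 174 to 252 reads in a control library.

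Both mural miRNAs were highest in cKO 2 among the cKO libraries and highest in control 3 among the controls. Control 3 was also the highest control for mir-126, mir-199a-1 and mir-214, so that order is not particular to the mural pair. The ratio of mir-143 to mir-145a, which does not depend on the library total, was 36.7, 42.0 and 45.2 in cKO 1 to 3, and 38.6, 47.5 and 50.1 in control 1 to 3. These values overlapped, with a difference of -0.13 in the mean log2 ratio (SE 0.14, exact two-sided permutation p = 0.4).

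Among the mesenchymal members, mir-199a-1 had 495, 527 and 553 RPKM in cKO 1 to 3, and 344, 338 and 479 RPKM in control 1 to 3. The cKO libraries lay above the control libraries, of which control 3 was the highest. The means were 525 ± 28.8 RPKM in cKO and 387 ± 80.1 RPKM in control retina (SD, n = 3 each). In the limma fit mir-199a-1 rose by 0.46 on the log2 scale, with an SE of 0.17 and an adjusted p = 0.036. The values were 0.45 for mir-199a-2 (adjusted p = 0.039) and 0.46 for mir-199b (adjusted p = 0.037), from nearly the same reads. This rise was smaller than those of 356 of the 461 tested precursors. The call of mir-199a-1 held without control 3 (0.62, adjusted p = 0.0068) and ended without cKO 1 (0.50), cKO 2 (0.45), cKO 3 (0.42), control 1 (0.38) or control 2 (0.37), at adjusted p = 0.051 to 0.11.

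The partner of mir-199a-2 in Dnm3os, mir-214, had 12, 8 and 4 reads in cKO 1 to 3, and 5, 4 and 5 reads in control 1 to 3. In RPKM these were 15.8, 10.5 and 6.63 in cKO, and 6.08, 5.27 and 6.44 in control retina. Its mean of 8.45 RPKM was below the minimum for testing. Summed over libraries, 24 reads in cKO against 14 in control retina gave a rate ratio of 1.90 (exact 95% interval 0.945 to 3.98, counting error only), so a difference was not detectable at this depth. Per length, mir-214 stood at 0.0190 to 0.0502 of mir-199a-2 in cKO and at 0.0212 to 0.0278 in control libraries. These ratios overlapped (exact two-sided permutation p = 0.6), and reads at mir-199a-2 also fit the other copies.

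Of the 5 separate sets of reads, 4 were tested, and all 4 rose as deposited, where 69.4% of all tested precursors rose and 1.74% fell. In 3 of the 4, all but mir-143, the cKO libraries lay above every control library, beside 71.6% of all tested precursors. Both counts are read against that background and set no member apart. Median-of-ratios scaling sets the typical precursor equal between libraries (median log2 fold change 0.014). Under it mir-126 still rose, to 15095, 12811 and 13677 scaled RPKM in cKO 1 to 3, against 7420, 9052 and 10589 in control 1 to 3. Every cKO library lay above every control library, as in 15% of tested precursors, while 20.2% had every cKO library below. The log2 fold change was 0.63 (SE 0.15, limma adjusted p = 0.020), and 2.17% of all tested precursors rose. No other member passed.

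Scaling multiplies a library by a single factor, so the gap between mir-126 and the other members stayed nearly the same. After it the log2 fold changes were -0.095 for mir-143 (95% interval -0.59 to 0.40, adjusted p = 0.87) and 0.038 for mir-145a (-0.34 to 0.42, adjusted p = 0.90). For mir-199a-1 it was -0.28 (-0.59 to 0.038, adjusted p = 0.24). Scaled values of mir-199a-1 were 396, 391 and 423 in cKO 1 to 3, and 464, 445 and 567 in control 1 to 3. All cKO libraries were thus the lower ones here, the reverse of the values as deposited and as in 20.2% of tested precursors. The direction of mir-199a-1 was up as deposited and down under the other 4 scalings, where it did not pass.

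**Figure D2:**
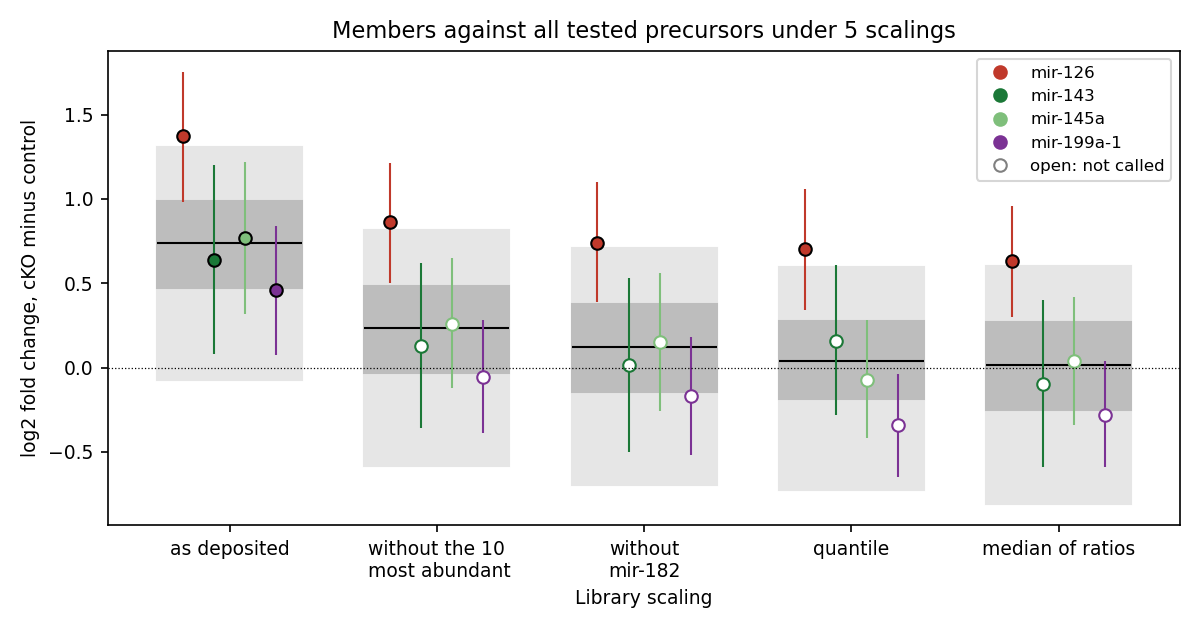
log2 fold change (cKO minus control) of 4 members with 95% intervals under 5 library scalings, over the 5th to 95th (light) and 25th to 75th (dark) percentiles and the median of all 461 tested precursors. Filled points passed at an adjusted p of 0.05. Those of mir-126, from 1.37 as deposited to 0.63 with median-of-ratios scaling, lie above the 95th percentile under each scaling, and the other members lie near or below the median.

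The choice of scaling moved mir-126 without ending its call. Its log2 fold change was 0.86 with totals that leave out the 10 most abundant precursors (adjusted p = 0.010), 0.74 with totals without mir-182 (adjusted p = 0.015) and 0.70 under quantile normalization (adjusted p = 0.028). The totals without the 10 were sums of RPKM over the other precursors, and those without mir-182 were library reads. The shares of all tested precursors that rose in these settings were 12.4%, 4.34% and 2.6%. Relative to the median precursor, mir-126 was 0.63 higher on the log2 scale as deposited and 0.62 higher after median-of-ratios scaling.

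The endothelial mir-126 was set against the mural miRNAs within each library, where the total cancels. Reads of the members were not traced to a cell type, so these ratios do not by themselves compare cells. The ratio of mir-126 to mir-143 was 0.873, 0.472 and 0.597 in cKO 1 to 3, and 0.428, 0.362 and 0.351 in control 1 to 3. The groups did not overlap, though cKO 2 came close to control 1. The mean log2 ratio was 0.73 higher in cKO retina (SE 0.27, exact two-sided permutation p = 0.1). The ratio of mir-126 to mir-145a was 32.1, 19.8 and 27.0 in cKO 1 to 3, and 16.5, 17.2 and 17.6 in control 1 to 3. Again cKO 2 was the nearest to the controls, which were close together (SD 0.045 on the log2 scale), and the difference was 0.60 (SE 0.20, exact two-sided permutation p = 0.1). With 3 libraries against 3 this test cannot give a p below 0.1, and over the 6 ratios compared the Benjamini-Hochberg adjusted value was 0.2 for both.

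A fit over the whole table, with each library set relative to the mean of mir-143 and mir-145a, put mir-126 at 0.66 on the log2 scale (SE 0.31, 95% interval 0.048 to 1.27). This did not pass (unadjusted p = 0.035, limma adjusted p = 0.43), in a fit where 0.218% of 459 precursors rose and 2.83% fell. The level of mir-126 relative to the mural miRNAs was 1.58-fold higher in cKO than in control retina. It was higher in 3 of 3 cKO libraries than in any control, which held for 6.97% of precursors in that setting. The adjusted p ranged from 0.25 to 0.99 over the alternatives, except with library weights, where it was 2.6e-05.

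Against the mesenchymal copies mir-126 was also higher in cKO retina. The ratio of mir-126 to mir-199a-1 was 38.1, 32.8 and 32.3 in cKO 1 to 3, and 16, 20.4 and 18.7 in control 1 to 3. The groups were far apart and the spread within each was small, with a difference of 0.91 in the mean log2 ratio (SE 0.13, exact two-sided permutation p = 0.1, adjusted over the 6 ratios 0.2). With each library set relative to mir-199a-1 across the whole table, a fit added after seeing the data, mir-126 rose 1.88-fold (log2 fold change 0.91, SE 0.20, limma adjusted p = 0.0044), beside 6.55% of 458 precursors that rose. The median precursor was also higher in that fit, by 0.29 on the log2 scale, so part of the 0.91 is shared with the typical precursor. The call of mir-126 held without each library in turn (adjusted p = 0.0027 to 0.044). The ratio of mir-126 to mir-214 was 1197, 1641 and 2692 in cKO 1 to 3, and 904, 1304 and 1391 in control 1 to 3, and it overlapped (exact two-sided permutation p = 0.2).

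**Figure D3:**
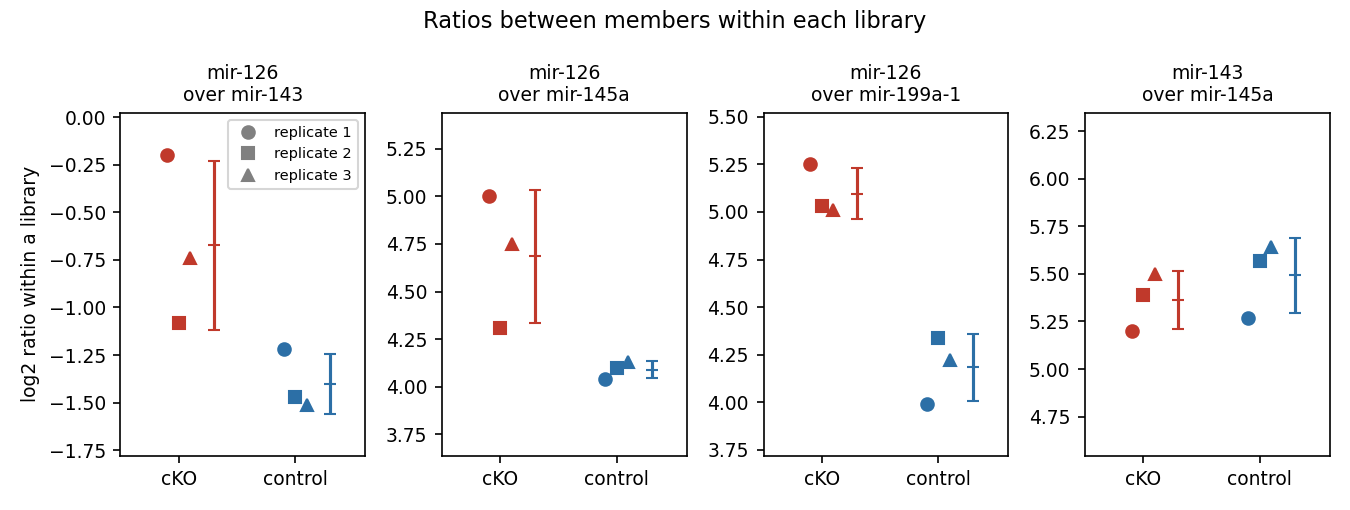
log2 ratio of RPKM (plus 1) between pairs of members within each library, cKO left of control, with 1 point per library and the mean ± SD beside the points. The panels span equal ranges of the log2 ratio. The cKO and control libraries do not overlap in the 3 ratios with mir-126 on top, and overlap in mir-143 over mir-145a.

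Profiles over the 6 libraries were compared by the root-mean-square difference of log2(RPKM + 1) centred on its own mean, among 300 other precursors averaging 100 RPKM or more. These are descriptions of 6 libraries that share 2 genotypes. The profiles closest to mir-126 were those of the imprinted mir-127 (difference 0.091), mir-490 (0.10) and mir-3059 (0.12), where the median candidate differed by 0.42. The mural mir-143 and mir-145a differed from mir-126 by 0.45 and 0.36, and mir-199a-1 by 0.47.

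Closest to mir-143 among the candidates were mir-140, a miRNA best known from cartilage, at 0.13, mir-3966 at 0.17 and mir-29b-2 at 0.18. Its cluster partner mir-145a differed by 0.16, and the median candidate by 0.37. Values of mir-140 were 8583, 13310 and 12401 RPKM in cKO 1 to 3, and 4214, 7692 and 8493 RPKM in control 1 to 3. As with mir-143, cKO 1 was the lowest cKO library, and control 1 the lowest of all.

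**Figure D4:**
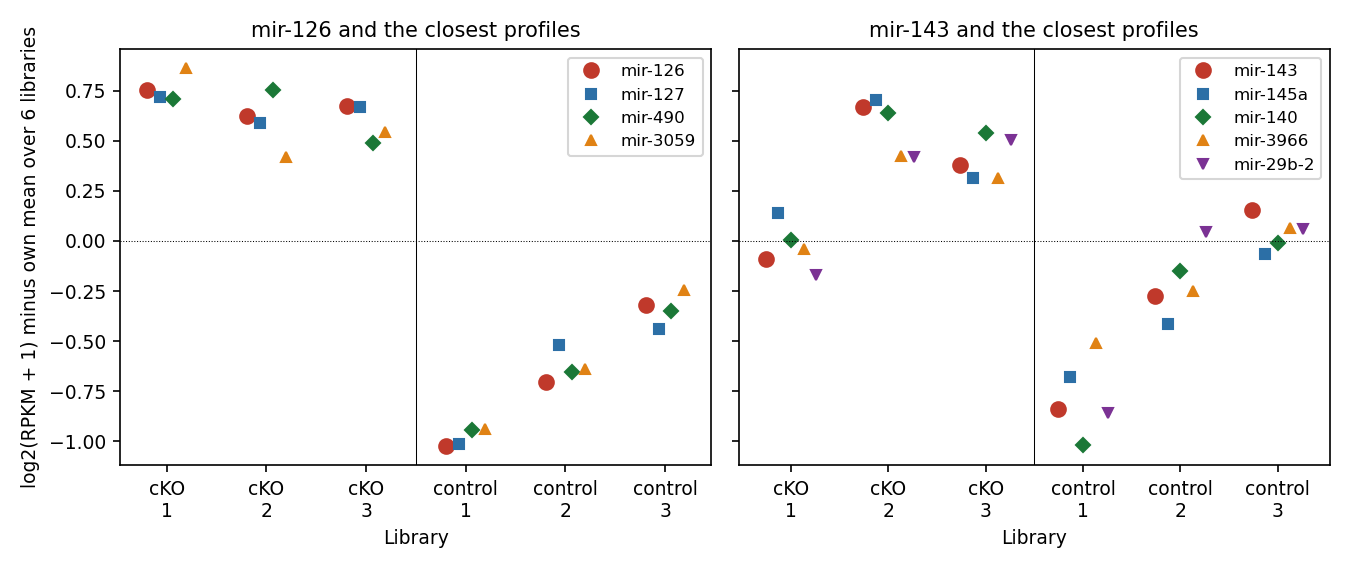
log2(RPKM + 1) of mir-126 (left) and mir-143 (right) with the closest profiles, each centred on its own mean over 6 libraries, with cKO libraries left of the line and control libraries right of it. For mir-126 and its neighbours every cKO point is above 0 and every control point below 0, while mir-143 and its neighbours lie near 0 in cKO 1 and in control 3.

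Other miRNAs known from vessels were taken as a list of 20 precursors, of which 18 were tested. As deposited 11 of the 18 rose and 0 fell, beside 69.4% and 1.74% of all tested precursors. Their median log2 fold change was 0.58, beside 0.74 over all tested precursors. With median-of-ratios scaling 0 rose and 4 fell (median -0.15), beside 2.17% and 9.98% of all tested precursors. Gene copies in this list were not merged, so its counts may hold the same reads more than once. Its most abundant members were mir-27b, mir-27a, mir-130a and mir-140. The last is best known from cartilage, so the list is not particular to vessels. The endothelium-linked mir-130a had 18890 ± 2084 RPKM in cKO and 10226 ± 1416 RPKM in control retina (SD, n = 3 each), and its log2 fold change was 0.89 (limma adjusted p = 9.0e-04) and 0.15 after median-of-ratios scaling (adjusted p = 0.47). The paired mir-27a and mir-27b, which promote vessel sprouting, stood at 0.14 and 0.12 as deposited without passing, and fell by 0.60 and 0.61 after that scaling (adjusted p = 0.0072 and 0.0058). Their changes were nearly the same and are not taken as separate measurements. Under that scaling mir-126 rose by 0.63.

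Markers of cells that a dissected retina can carry were measured beside the members, and their counts are set against the 69.4% of all tested precursors that rose as deposited. The 3 red cell precursors summed to 26667 to 31080 RPKM in cKO and 16553 to 19359 RPKM in control libraries, and 2 of the 3 rose. The most abundant, mir-486, had a log2 fold change of 0.73 (limma adjusted p = 9.9e-04). The erythroid mir-451a rose 2.14-fold (1.10 on the log2 scale, adjusted p = 0.001), while mir-144 did not pass (0.70, adjusted p = 0.14). The 6 leukocyte and microglial precursors summed to 9965 to 12268 RPKM in cKO and 4991 to 6380 RPKM in control libraries, and 3 of the 5 tested rose, near that background. The lymphocyte mir-150 rose by 1.05 and the pan-leukocyte mir-142 by 0.89 on the log2 scale (adjusted p = 0.0014 and 9.2e-04). The most abundant of this list, mir-342, rose by 0.94 (adjusted p = 5.1e-04), while mir-146a did not pass (0.62, adjusted p = 0.087). None of these rose with median-of-ratios scaling, under which mir-486 stood at -0.0039, mir-451a at 0.36, mir-150 at 0.32 and mir-142 at 0.16.

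For pigment epithelium, which lies against the choroid and its vessels, the precursors listed were mir-204 and mir-211. Their reads were not traced to a cell type, so they do not by themselves measure this tissue. Their sum was 1197357 to 1475670 RPKM in cKO and 655315 to 758334 RPKM in control libraries, with log2 fold changes of 0.96 each (limma adjusted p = 2.6e-04) and of 0.22 and 0.23 after median-of-ratios scaling. The 8 muscle precursors summed to 2130 to 3316 RPKM in cKO and 1295 to 2191 RPKM in control libraries, and 4 of the 7 tested rose, beside 69.4% of all tested precursors. Of the risers, mir-133a-1, mir-133a-2 and mir-133b each stood at 0.65 (limma adjusted p = 0.029, 0.03 and 0.03). Copies were not merged, so the count and the sum may hold the same reads more than once. With median-of-ratios scaling 0 of the 7 tested rose (median -0.088). The 9 lens, cornea and surface precursors summed to 25993 to 64245 RPKM in cKO and 2933 to 54822 RPKM in control libraries, and 1 of the 8 tested rose. This was mir-203, at 0.87 on the log2 scale (limma adjusted p = 0.002) and 0.14 after median-of-ratios scaling (adjusted p = 0.63). The most abundant of this list, mir-184, had 47070 ± 20115 RPKM in cKO and 20973 ± 27071 RPKM in control retina (SD, n = 3 each). In the limma fit mir-184 stood at 2.12 on the log2 scale (SE 0.88, adjusted p = 0.052) and mir-31 at 1.45 (SE 0.72, adjusted p = 0.091), both above the 1.37 of mir-126 without passing. The values were 1.39 for mir-184 and 0.71 for mir-31 under median-of-ratios scaling, again without passing. No precursor of these 5 lists was at 0 in all libraries, and the part of these tissues in the vascular values was not tested.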

How the data were processed

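Small RNA of 6 pools of retinas was sequenced, per the labels' protocols from 1 µg of total RNA with 11 rounds of PCR, in a shared single-end run of 50 bp. The authors deposited RPKM values for 855 precursors. Bowtie and mm9 are named, per the submitters' processing notes, while its version, the annotation and how multiply matching reads were handled are not given there. RPKM times precursor length came in whole steps for 100.0% of 4878 values (tolerance 0.01 reads), which gave reads and library totals. Values at 0, which fit any length, are among these, and the totals were fitted to the same values. Sums over precursors were 1.77 to 1.86 times the totals in cKO and 1.55 to 1.56 times in control libraries. Lengths and host genes came from GENCODE and sequences from RefSeq, both GRCm38, so no coordinates are given; 640 precursors matched a hairpin by name.

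Precursors averaging 10 RPKM or more were tested with limma 3.58.1 (R 4.3.3, trend, two-sided, Benjamini-Hochberg threshold 0.05) on log2(RPKM + 1), which understates changes of low precursors. Ratios were tested by exact permutation, and intervals computed with scipy 1.17.1. Alternatives covered the pseudocount, filter, scaling, variance model, library weights, summed copies, voom on whole reads, a fit with a replicate block, and omission of each library in turn. Nothing says which mice went into which pool, so p values measure the spread between these libraries. On simulated data with 200 of 461 precursors changed, the fit recovered 58.0%, 82.3% and 100.0% of those changed 1.5-, 2- and 4-fold. Of its calls on those data 0.621% were unchanged. The share of unchanged precursors among calls on the deposited values, where the median log2 fold change was 0.74, was not tested. The members, the lists and the tests were chosen with earlier results of these data known. Named were all 7 members, up to 4 abundant precursors of each list and the 3 closest profiles of mir-126 and mir-143.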

Additional observations from a re-analysis of the deposited data

How the results depend on the processing

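The call of mir-126 held under every alternative run, and those of the other 5 tested members ended under the 4 other scalings. Leaving out a library, the log2 fold change of mir-126 ran from 1.20 to 1.55, of mir-143 from 0.38 to 0.88, of mir-145a from 0.61 to 0.93, of mir-199a-1 and mir-199b from 0.37 to 0.62 and of mir-199a-2 from 0.37 to 0.61. Relative to the mural precursors mir-126 ran from 0.46 to 0.86, and relative to mir-199a-1 from 0.82 to 0.99. In the order totals without the 10 most abundant precursors, totals without mir-182, quantile normalization and median-of-ratios scaling, mir-143 stood at 0.13, 0.016, 0.16 and -0.095, mir-145a at 0.26, 0.15, -0.073 and 0.038, mir-199a-1 at -0.054, -0.17, -0.34 and -0.28, mir-199a-2 at -0.056, -0.17, -0.28 and -0.28, and mir-199b at -0.052, -0.17, -0.27 and -0.28, none past the threshold. The cause was not tested. The call of mir-143 (0.64) also ended with a filter at 100 RPKM or summed copies (adjusted p = 0.053 each), and without a trend (adjusted p = 0.091). Those of mir-199a-1 (0.46), mir-199a-2 (0.45) and mir-199b (0.46) ended without a filter (adjusted p = 0.052, 0.067 and 0.064), and those of mir-199a-1 and mir-199a-2 without a trend (adjusted p = 0.052 each). Without a filter mir-214 stood at 0.72 (SE 0.42, adjusted p = 0.17). With library weights mir-126 relative to the mural precursors passed at 0.68 (SE 0.14); the cause was not tested.

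In the same order of scalings 57, 20, 12 and 10 precursors rose and 29, 36, 29 and 46 fell, against 320 and 8 as deposited. The number that fell was 4 with a filter at 100 RPKM and 14 with library weights. Leaving out a library gave 252 to 322 that rose and 4 to 12 that fell: 12 without control 1, 4 without control 2 or control 3, and 5 without cKO 2 or cKO 3. Of the within-library ratios, leaving out a library gave 0.49 to 0.93 for mir-126 over mir-143, 0.44 to 0.78 over mir-145a, 0.82 to 0.99 over mir-199a-1 and 0.37 to 0.89 over mir-214, and -0.24 to -0.049 for mir-143 over mir-145a. The ratio of mir-214 to mir-199a-2 was 0.27, and it reversed at -0.065 with a pseudocount of 10 and at -0.056 without cKO 1 (range -0.056 to 0.59), where few reads are behind mir-214.

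Same-numbered libraries deviated together with correlations of 0.187, 0.264 and 0.0093 across precursors. Libraries cKO 1 and cKO 2 correlated best with the control of their own number and cKO 3 did not, so the numbers were not taken as pairs. With a replicate block 338 precursors rose and 10 fell, mir-126 kept 1.37, mir-143 0.64, mir-145a 0.77 and mir-199a-1 0.46, and all 4 passed. The SE of mir-143 was 0.15 in the block and 0.25 without it (limma adjusted p = 0.0048 and 0.043). Relative to the mural precursors mir-126 kept 0.66 in the block (adjusted p = 0.25). The block ended no call of a member. Depth limits mir-214 most, at 4 to 12 reads a library.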
